A study of Caenorhabditis elegans with 2 samples.

Results

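The cytosolic ribosomal protein genes of Caenorhabditis elegans were taken as all protein-coding genes of the Ensembl annotation whose symbol starts with rpl- or rps-. There were 78 such genes among 19973 nuclear protein-coding genes, 47 for the large subunit (rpl-) and 31 for the small subunit (rps-). Binding of SCRT-1, a zinc finger protein related to Scratch and Snail, was mapped in whole early embryos, 2 h old and collected by egg bleaching, by chromatin immunoprecipitation with an anti-GFP antibody and sequencing (ChIP-seq). The series has 1 group of 2 biological replicates, both from strain OP802, which carries the transgene wgIs802 (scrt-1 tagged with TY1, EGFP and 3xFLAG, together with unc-119(+)) in an unc-119 (tm4063) background. There was no untagged, mutant or other-stage group, and a possible control named in the labels was not used. The labels list no change in the endogenous scrt-1 gene, so untagged SCRT-1 may have been present beside the tagged protein. Embryos were used whole, so strong binding in few cells and weak binding in many cannot be told apart.

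Each ribosomal protein is normally present once per ribosome, and the genes that encode them are among the most strongly transcribed of growing cells. They are therefore usually described as a coordinately expressed set. In early embryos much of the ribosome pool is supplied by the mother. Scratch and Snail proteins recognise the E-box CAGGTG. Many C. elegans mRNAs receive a spliced leader, so an annotated gene start can lie downstream of the position where transcription begins.

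The sites that carry the finding are shown first. A site is a peak of the authors' conservative list, which holds the peaks that were ranked alike in both replicates. The irreproducible discovery rate (IDR) of a peak estimates how many of the peaks down to its rank would fail to recur, as a fraction, and it was at most 0.00999 here. The sequences below are the 101 bases centred on the summit, read along the coding strand of the ribosomal protein gene from the WBcel235 (ce11) genome. The first 5 are the strongest sites, rps-1 is shown because, like rpl-15 and rpl-20, it holds both marked words, and rps-11 because it is unlike the others in base composition. Capitals mark TACGGT and GTGTATG on either strand. These words were picked after the windows had been read, so their counts in these windows are a description.
rpl-3 (chrIII:3867537-3867637, plus strand): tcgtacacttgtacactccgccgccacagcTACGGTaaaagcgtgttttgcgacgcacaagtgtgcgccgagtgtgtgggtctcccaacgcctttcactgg
rpl-15 (chrIV:654886-654986, minus strand): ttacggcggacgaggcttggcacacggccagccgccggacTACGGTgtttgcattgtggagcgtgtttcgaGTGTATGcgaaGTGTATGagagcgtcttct
rpl-20 (chrIV:4750031-4750131, minus strand): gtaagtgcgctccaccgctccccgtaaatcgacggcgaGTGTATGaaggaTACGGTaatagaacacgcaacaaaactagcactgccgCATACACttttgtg
rps-28 (chrIV:1659191-1659291, plus strand): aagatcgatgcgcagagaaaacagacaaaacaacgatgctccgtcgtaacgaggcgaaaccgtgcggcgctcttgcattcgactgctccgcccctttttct
rpl-35 (chrIII:7854650-7854750, plus strand): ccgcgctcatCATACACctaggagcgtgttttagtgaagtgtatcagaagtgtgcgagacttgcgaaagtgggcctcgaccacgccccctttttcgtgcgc
rps-1 (chrIII:4475621-4475721, plus strand): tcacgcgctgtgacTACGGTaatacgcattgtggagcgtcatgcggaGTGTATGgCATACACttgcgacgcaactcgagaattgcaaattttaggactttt
rps-11 (chrIV:11602120-11602220, plus strand): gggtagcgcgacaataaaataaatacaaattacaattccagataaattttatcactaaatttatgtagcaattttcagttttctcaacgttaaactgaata

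Of the 78 ribosomal protein genes, 13 had a site whose summit lay between 1000 bp upstream and 200 bp downstream of an annotated start (16.7%, exact 95% interval 9.18 to 26.8), against 2.99% of all protein-coding genes. They were rpl-3, rpl-15, rpl-20, rpl-35 and rpl-7A of the large subunit and rps-28, rps-26, rps-20, rps-1, rps-24, rps-19, rps-11 and rps-27 of the small subunit. Each gene had 1 site and no site served 2 of them. Distances below are from summit to start, and negative values are upstream. The intervals given for shares are Clopper-Pearson intervals over genes, and genes of 1 pair of libraries are not replicates.

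Signal at these sites, the authors' peak value on a scale that is not given, ran from 77.2 to 271 with a median of 103. The 584 other bound protein-coding genes had a median site signal of 102, so ribosomal protein genes with a site were not set apart by its height. In the list of 1211 sites rpl-3 ranked 111 and rpl-15 ranked 202 by signal, and the lowest, rps-27, ranked 974.

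Among large subunit genes, rpl-3, which encodes a core protein near the peptidyl transferase centre, had the strongest site. Its signal was 271, with 156 in replicate 1 and 113 in replicate 2, at an IDR of 0.0001646. The summit lay at -267 bp (site on chromosome III from 3867515 to 3867660), and the replicates placed it 1 bp apart. The site of rpl-15 (IV from 654778 to 655093) reached 186, with 105 in replicate 1 and 90.4 in replicate 2. At rpl-20 the site (IV from 4749923 to 4750238) had 168, with 83.1 and 89.6 in replicates 1 and 2. Both encode structural proteins of the large subunit. By the signal of each replicate, both sites were in the upper 1% of the series-wide ranked peaks, at percentiles of 99.64 to 99.78. High percentiles are part of how sites are selected. The 584 other bound genes had medians of 99.28 in replicate 1 and 99.29 in replicate 2, with upper quartiles of 99.64 and 99.62. The gene rpl-35, whose product sits near the exit tunnel of the nascent chain, had a site of 136 (III from 7854542 to 7854857), with 66.8 in replicate 1 and 58.4 in replicate 2. The weakest large subunit site, at rpl-7A (IV from 4390525 to 4390840), had 80.3, with 46.1 and 43.5 in the replicates. It was also the closest to a start, at -93 bp.

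Small subunit sites were weaker, with a median signal of 94.3 against 168 at the 5 large subunit sites, and the ranges of 77.2 to 152 and 80.3 to 271 overlapped. The strongest was that of rps-28 (IV from 1659083 to 1659398), which encodes a protein near the mRNA exit channel. Its signal was 152, with 99.6 in replicate 1 and 48.0 in replicate 2. At rps-26 (I from 14759384 to 14759699), whose product also lines the mRNA exit, the signal was 130, with 87.6 in replicate 1 and 42.7 in replicate 2. At rps-20 (I from 14469180 to 14469495) it was 103, with 78.2 and 27.5. For rps-1 (III from 4475513 to 4475828), which encodes a protein of the subunit's platform, it was 94.97, with 70.2 in replicate 1 and 29.3 in replicate 2. In these 4 the value in replicate 1 was the higher by a factor of 2.05 to 2.84, whereas the 5 large subunit sites had ratios from 0.927 to 1.38.

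The other small subunit sites were closer to balance. The site of rps-24 (IV from 385408 to 385723) reached 93.7, with 47.8 in replicate 1 and 44.3 in replicate 2. At rps-19 (I from 9625960 to 9626275), whose human counterpart is mutated in Diamond-Blackfan anaemia, the signal was 77.5, with 51.1 and 32.8. At rps-11 (IV from 11602012 to 11602327) it was 77.3, with 41.9 in replicate 1 and 47.7 in replicate 2, and at rps-27 (V from 104527 to 104842), which encodes a zinc finger protein, 77.2, with 38.5 and 39.8. Over the 584 other bound genes the ratio of replicate 1 to replicate 2 had a median of 1.28 (quartiles 1.08 and 1.52). The ratio of 2.84 at rps-20 equals the highest among them, which is that of ekl-4, a gene that shares this site. Since the depth of the libraries is unknown, the ratio has meaning only against these other sites.

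**Figure D1:**
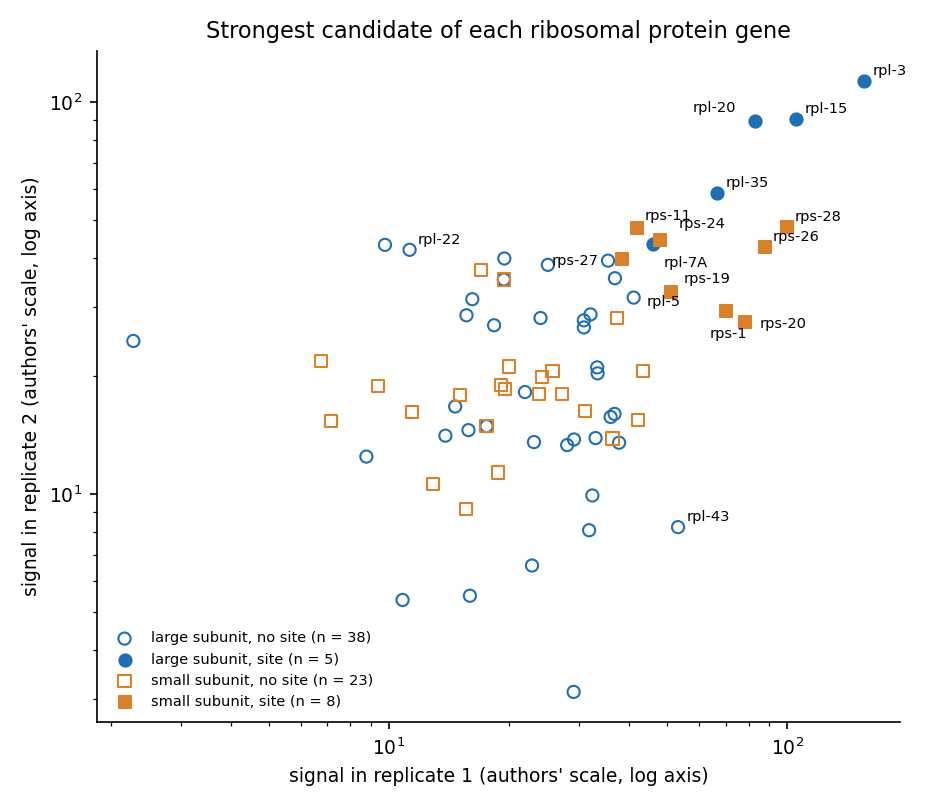
Signal of the strongest candidate peak of each ribosomal protein gene in replicate 1 (x axis) and replicate 2 (y axis), both on log axes in the authors' units, for the 74 genes with a candidate. Filled symbols are the 13 genes with a site; circles are large and squares small subunit genes. rpl-3, rpl-15, rpl-20 and rpl-35 lie at the upper right, while rpl-22 and rpl-43 are high in 1 replicate only.

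The replicates' own thresholded lists gave a narrower view. Replicate 1 alone had a summit in the windows of 8 ribosomal protein genes (10.3%), against 1.46% of all protein-coding genes, and replicate 2 alone in those of 9 (11.5%), against 1.43%. In both lists were 5 genes (6.41%), against 0.951%: rpl-3, rpl-15, rpl-20, rpl-35 and rps-28. The sites of rps-26, rps-20 and rps-19 overlapped a thresholded peak of replicate 1 only, and those of rps-24, rps-11 and rps-27 one of replicate 2 only. Those of rpl-7A and rps-1 overlapped neither. Of the 447 other sites in protein-coding promoter windows, 31.3% overlapped both lists, against 5 of the 13 here. In the optimal list 11 ribosomal protein genes were bound (14.1%), against 3.1% of all genes; rps-1 and rps-11 were the ones absent.

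Large and small subunit genes were compared by their bound shares. In the conservative list 8 of 31 small subunit genes had a site (25.8%, 11.9 to 44.6) and 5 of 47 large subunit genes (10.6%, 3.55 to 23.1). The intervals overlap, but they treat genes as replicates, so they do not decide whether the subunits differ. No difference between the subunits is claimed. The order also depended on the threshold. At an IDR of at most 0.05 the shares were 9 of 31 (29.0%) and 10 of 47 (21.3%), where 6.12% of all genes were bound. At an IDR of at most 0.001 they were 1 of 31 (3.23%) and 4 of 47 (8.51%), where 0.996% were, so that large subunit genes then had the higher share. The same counts, 1 and 4, were found in both replicates' own lists at once. Replicate 1 alone gave 4 small and 4 large subunit genes, and replicate 2 alone 4 and 5.

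**Figure D2:**
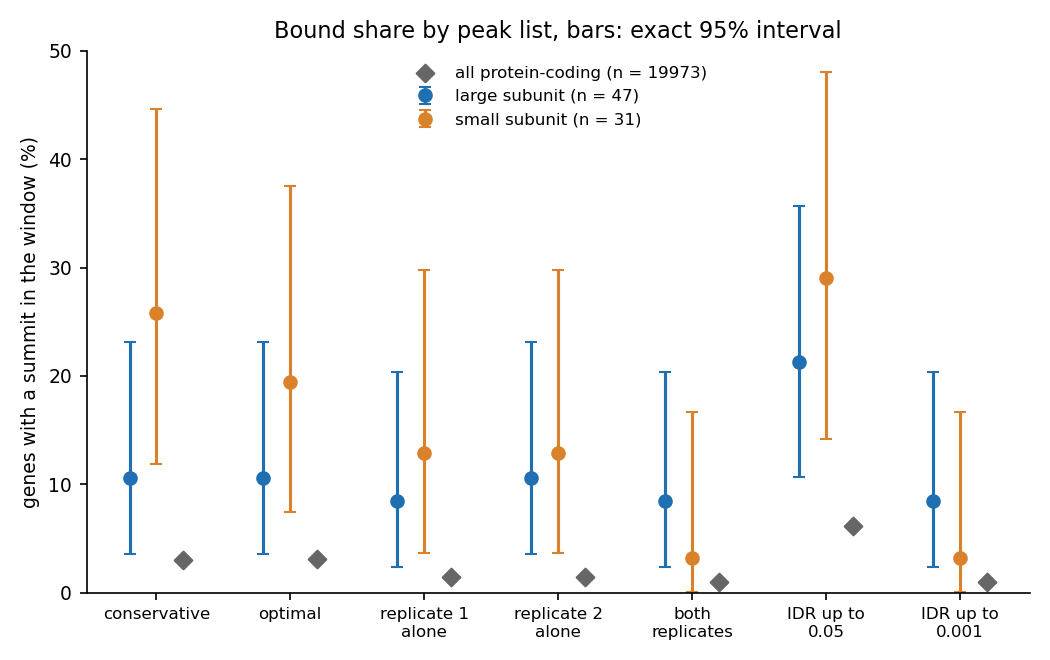
Share of genes with a peak summit in the promoter window (y axis, percent) for each peak list (x axis), for large subunit genes (circles, left), small subunit genes (circles, right) and all protein-coding genes (diamonds). Bars are exact 95% intervals over genes. The small subunit share is 25.8% in the conservative list and 3.23% at an IDR of at most 0.001.

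Genes without a site were described by the strongest candidate in the window, taken from the 101059 ranked peaks of both replicates, most of which failed the reproducibility threshold. At least 1 candidate was found at 74 of the 78 genes (94.9%), against 69.4% of all protein-coding genes. None was found at rpl-18, rpl-27, rpl-28 and rpl-33. The 74 strongest candidates were 72 different peaks, since rpl-24.1 and rps-10 share one and so do rpl-36 and rps-14. Their median signal was 48.5, against 33.9 over all 13864 genes with a candidate. Without the genes that had a site the medians were 43.4 over 61 ribosomal protein genes and 33.04 over all protein-coding genes without a site. Large subunit genes had a median of 50.3 (quartiles 38.4 and 60.2, n = 43) and small subunit genes one of 47.8 (quartiles 31.9 and 70.6, n = 31), and the ranges overlapped. Candidates with an IDR above 0.5 made up 23% of the 74, against 42% over all genes.

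The threshold divided values that lay close together. Just inside it, rps-20 had an IDR of 0.008302. Just outside was rpl-5, which encodes the protein that binds 5S rRNA, with an IDR of 0.01003 at -374 bp. Its signal was 78.6, with 41.1 and 31.7 in replicates 1 and 2. This is above the signals of rps-19, rps-11 and rps-27, which have sites. Next by IDR came rpl-12, of the stalk base, at 0.0112 and -394 bp (signal 63.9, with 36.9 and 35.5 in the replicates). A second rpl-12 candidate at 81 bp (signal 26.3) carries the same replicate values and IDR. These values are therefore not particular to 1 of the 2 peaks.

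Among the strongest candidates without a site, agreement between replicates varied. At rpl-38 the signal was 67.1, with 33.3 in replicate 1 and 21.0 in replicate 2, and at rps-12 it was 64.1, with 37.3 and 28.2. Shares here are of the ranked peaks of both replicates, ordered by the signal of 1 replicate, where a value can recur. At rpl-43 the peak reached 53.2 in replicate 1, above 99.2% of these peaks, and 8.22 in replicate 2, above 28.1%. At rpl-22 it was the reverse, with 11.3 in replicate 1 (above 32.3%) and 41.9 in replicate 2 (above 99.1%). A peak in the window of rpl-22 was thus in the thresholded list of replicate 2 alone, and its IDR between replicates was 0.578. Over the 74 strongest candidates Spearman's rho between the replicate signals was 0.378, against 0.364 over all genes with a candidate. Over the 61 without a site it was 0.0, against 0.279 over all genes without one, a choice that itself removes peaks ranked alike. These points share both libraries, and the value is a description.

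**Figure D3:**
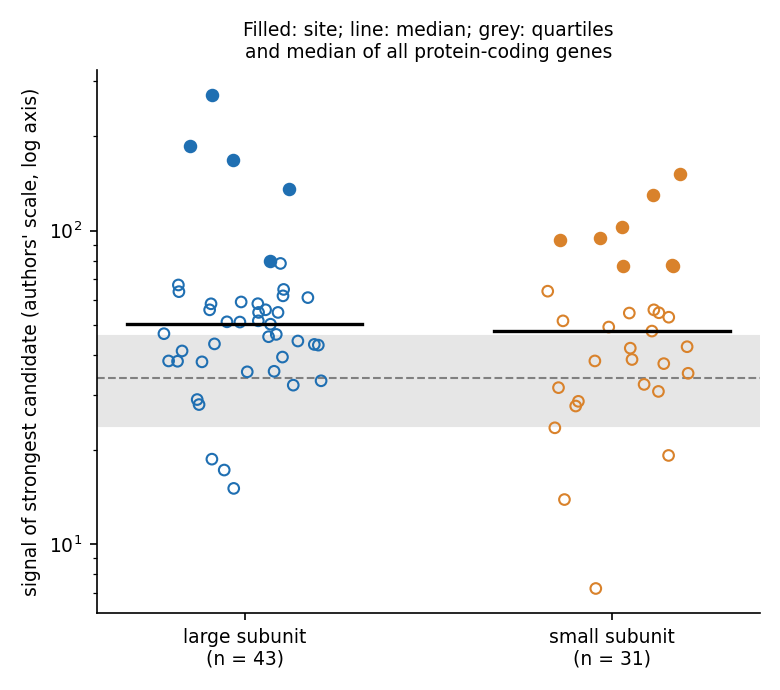
Signal of the strongest candidate (y axis, log axis, authors' units) at large and small subunit genes, with filled symbols for genes with a site and a black line at the median (50.3 and 47.8). The dashed line and grey band are the median (33.9) and quartiles over all protein-coding genes with a candidate. The medians of both subunits lie above the band's upper edge of 46.3.

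The position of the sites was the next question. The 13 summits lay from -608 bp (rps-27) to -93 bp (rpl-7A), with a median distance of -322 bp. None was downstream of the start, and only 7.71% of the 584 other bound genes had a downstream summit. At large subunit genes the median was -303 bp and at small subunit genes -355 bp. The 597 bound genes as a whole had a median of -295 bp, with wider quartiles of -570 and -147 bp, against -434 and -267 bp at ribosomal protein genes. A range of 200 to 500 bp upstream, chosen after the distances were seen, held 11 of the 13 summits and 34.1% of those of the 584 other bound genes. Within 200 bp upstream lay 1 of the 13, against 28.9%. The strongest candidates of the 61 genes without a site had a similar centre, with a median of -335 bp, but spread from -968 to 171 bp. That median is also near the -356 bp of all genes with a candidate.

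Replicate summits lay a median of 18 bp apart at the 13 sites, against 25 bp over all sites. The widest gap, 174 bp, was at rps-11, where replicate 1 placed the summit at -513 bp and replicate 2 at -339 bp. Of the 13 summits, 12 were intergenic. The one of rps-1 fell in an exon of the non-coding RNA gene F56F3.10. Only the nearest gene that is not protein-coding was recorded for each summit. It was a snoRNA gene at rps-26 (F39B2.14, 130 bp away), rpl-7A (375 bp) and rpl-15 (575 bp).

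Genes on the other strand share many of these upstream regions. At 8 of the 13 genes (61.5%) the summit also lay in the promoter window of a protein-coding gene on the opposite strand, as it did at 42.3% of the 584 other bound genes. In 5 of these 8 the summit was nearer to the neighbour's start. At rps-26 it was at -388 bp from the ribosomal protein gene and at -69 bp from tmem-107, which encodes a membrane protein of the ciliary transition zone. At rps-27 the distances were -608 bp and, to picd-1, -140 bp. At rps-19 they were -322 bp and, to hsr-9, a relative of the 53BP1 gene of mammals, -123 bp. At rpl-20 they were -303 bp and, to Y17G9B.5, -159 bp, and the summit of rps-20 was at -162 bp from ekl-4.

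In the remaining 3 pairs the ribosomal protein gene was the nearer. The summit at rps-1 was at -247 bp from it and at -521 bp from ifet-1, which encodes a relative of the eIF4E transporter. At rpl-15 the distances were -360 bp and, to K11H12.8, -454 bp, and at rpl-7A -93 bp and, to set-21, -161 bp. The window of a gene on the same strand, Y41D4B.4, also held the summit of rps-28. Only rpl-3, rpl-35, rps-24 and rps-11 had a site in no other protein-coding window. The lists cannot assign a shared site to either gene.

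**Figure D4:**
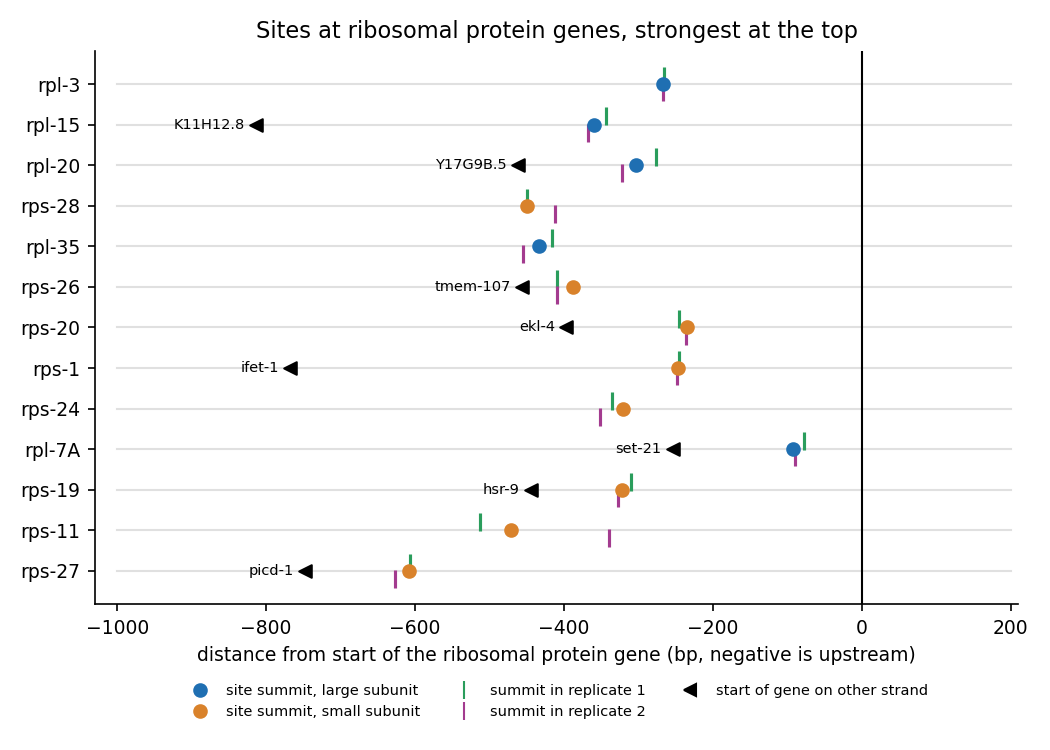
Position of the summit at the 13 sites (circles), of the summit in replicate 1 and replicate 2 (green and purple ticks) and of the start of the opposite-strand gene whose window holds the summit (triangles), as distance in bp from the start of the ribosomal protein gene (x axis), with 1 gene per line in order of signal. All summits lie upstream, and at rps-26, rps-27, rps-19, rpl-20 and rps-20 the triangle is the nearer start.

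Ribosomal protein genes often have such a neighbour whether bound or not. Within 1000 bp upstream, 47 of the 78 genes (60.3%) had a protein-coding start on the opposite strand, against 18.3% of all protein-coding genes. Of these 47 genes 8 had a site, and of the 31 without such a neighbour 5 had one (16.1%). Over all protein-coding genes the shares were 6.26% with and 2.26% without a neighbour. The part of divergent promoters in the difference from all genes was not tested further.

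The windows around the summits were rich in G and C, like those of other sites. The median GC content of the 101 bases was 52.5%, against 51.5% over all 1211 sites and 39.6% over the candidates in protein-coding promoter windows. rps-11, at 26.7%, was the exception. The Scratch E-box CAGGTG, searched on both strands like every word here, was in 0 of the 13 windows, in 3.47% of all site windows and in 3.29% of candidate windows. Any E-box, CANNTG, which includes CAGGTG, was in 4 of the 13, at rpl-3, rps-20, rps-1 and rpl-7A, and in 36.7% of all site windows. GGGCGG was in 3 (rps-28, rps-19 and rps-27), against 9.91% of all sites, GAGAGA in 0, against 13.7%, and CGCGCA in 1 (rpl-7A), against 9.33%. TTTCAG was in 1 (rps-11), against 5.86%, TTTTTT in 2 (rpl-7A and rps-19), against 14.8%, and TATAAA in 0, against 3.72%. With 13 windows these counts do not separate the genes from other sites.

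TACGGT was in 5 of the 13 windows, at rpl-3, rpl-15, rpl-20, rps-20 and rps-1, and in 2.56% of all site windows. It was also common upstream of ribosomal protein genes that had no site. In the 500 bp before the outermost start it was found at 30 of 65 such genes (46.2%), at 6 of the 13 with a site and at 13.9% of all protein-coding genes. Large subunit genes held it at 53.2% and small subunit genes at 35.5%. GTGTATG was in 4 windows, at rpl-15, rpl-20, rpl-35 and rps-1, against 2.48% of all site windows. Upstream of the 65 genes without a site it was found at 0. A further pair of words was picked in the same way. GCACAC was in 6 of the 13 windows and 11.1% of all site windows, and upstream of 26.2% of the 65 genes without a site and 15.1% of all protein-coding genes. ACACTC was also in 6, against 7.18% of all site windows, and upstream of 30.8% of the 65 genes and 15.7% of all genes. These 4 words were chosen from the bound windows, so the counts there are no support, and the 0 of 65 for GTGTATG stands beside 3.81% of all genes. A match is not a binding site.

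Related genes of the translation machinery were counted in the same way, from lists chosen with earlier results of these data known. Of 8 genes without the rpl- or rps- prefix, listed as further cytosolic ribosome genes, 0 had a site. The list was drawn up for the acidic stalk proteins, RACK1 and ubiquitin fusions among others. The symbols searched also included rpa-1 and rpa-2, which name replication protein A subunits, so the 8 are not all ribosome genes. In a list of 32 genes, drawn up for ribosome assembly and RNA polymerase I, 1 had a site (3.12%). It was larp-1, which was on the list but encodes neither an assembly factor nor a polymerase subunit. Relatives of larp-1 bind ribosomal protein mRNAs in mammals. Its site had a signal of 115.02, with 67.2 and 49.6 in replicates 1 and 2. Mitochondrial ribosomal protein genes reached 3 of 70 (4.29%), mrpl-23 (242), mrpl-12 (123) and mrpl-39 (121). Translation factor genes reached 5 of 41 (12.2%): eif-3.C (206), eif-3.E (83.7), eif-2Bgamma (140), iff-2 (100.1) and eef-1G (59.2). These shares stand beside the 2.99% of all protein-coding genes and the 16.7% of ribosomal protein genes. Transcript levels were not measured in this series, and the part of high transcription in the signal was not tested.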

How the data were processed

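ChIP-seq peak lists of 2 biological replicates were used as deposited, in ce11 coordinates per the labels. The signal per peak was deposited by the authors on a scale that is not given, and was used only within a list. The authors' score column, derived from the IDR, was not used for any value. The ranked lists hold the deposited -log10 of the global IDR. The peak caller, the aligner and the sequencing depth were not stated by any source used. Paired-peak signals were assigned to replicates by identical records. For the first paired peak, 66793 of 101059 records were identical in the own ranked list of replicate 1. For the second, 53497 of 101059 were identical in that of replicate 2. In the other replicate's list 0 were identical in either case. The remaining records had no identical match, and the same assignment was used for them.

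Summits were placed on Ensembl release 115 transcript starts (1000 bp upstream to 200 bp downstream), and sequence came from the RefSeq copy of WBcel235. Distances are to the nearest such start. Calculations used Python 3.11.15, numpy 2.4.6, pandas 2.3.3 and scipy 1.17.1, and window assignment was tested on simulated data. No test was run, since genes are not replicates and there is no second group. Members and lists were chosen with earlier results of these data known. Named genes are all with a site, the 6 strongest without one, and opposite-strand neighbours. Genes without a candidate, with a shared candidate or a numbered copy, and bound genes of the related lists, were named after their values were seen. Alternatives changed the list, IDR, window, start, overlap and replicate.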

Additional observations from a re-analysis of the deposited data

How the results depend on the processing

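The number of bound ribosomal protein genes, 13, stayed within a factor of 1.5 with the optimal list, at an IDR of 0.05, with the ranked list at 0.01, with both other windows, with 1 start a gene and by peak overlap. At an IDR of 0.001 it was 5, with 4 large and 1 small subunit gene, a median distance of -360 bp and 2 genes with an opposite-strand window. At 0.05 large subunit genes numbered 10. Without replicate 1 or 2 the total was 8 to 9, the large subunit count 4 to 5, the small subunit count 4, the median distance -352 to -327 bp and the opposite-strand count 4 to 5. The correlation of replicate signals was 0.537 within 500 bp upstream to 100 bp downstream. The cause was not tested. No paired analysis was possible because the series has 1 group. Windows of rps-24 and rpl-7A hold 6 and 3 of 72 30-mers that recur in the genome, where reads can be shared. With depth unknown, absence of a site does not show absence of binding.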

Other observations

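Ribosomal protein genes with a site were spread over 4 chromosomes. On IV 6 of 17 had one, against 2.59% of all protein-coding genes there, and on III 3 of 18, against 4.05%. On I it was 3 of 23, against 3.89%, and on V 1 of 8, against 2.06%. On II 0 of 10 had one, against 3.02%, and on X 0 of 2, against 3.15%. These counts are too small to order the chromosomes. Of the 8 genes with a numbered copy (rpl-11.1 and rpl-11.2, rpl-24.1 and rpl-24.2, rpl-25.1 and rpl-25.2, rpl-41.1 and rpl-41.2), 0 had a site, where 16.7% of all 78 and 2.99% of all protein-coding genes did, so that a count of 0 among 8 sets them apart from neither. Their strongest candidates had signals from 28.9 to 58.5. Within pairs the values were 55.9 at rpl-24.1 and 45.9 at rpl-24.2, 46.7 at rpl-25.1 and 58.4 at rpl-25.2, 32.1 at rpl-11.1 and 58.5 at rpl-11.2, and 28.9 at rpl-41.1 and 55.9 at rpl-41.2, which encode a very short basic protein. The candidate of rpl-41.2 reached 35.5 in replicate 1 and 39.4 in replicate 2 at an IDR of 0.01126, and that of rpl-41.1 only 2.28 and 24.6. Reads can be shared where sequences are near-identical. How alike the windows of these pairs are was not tested, so values within pairs are uncertain.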
